A study of Homo sapiens with 6 samples.

Results

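Adenylyl cyclases make cyclic AMP (cAMP) from ATP. Most are membrane enzymes that heterotrimeric G proteins switch on or off, and they differ in how calcium acts on them: calmodulin with calcium stimulates ADCY1 and ADCY8, while calcium inhibits ADCY5 and ADCY6. cAMP then acts through protein kinase A (PKA), EPAC exchange factors, POPDC proteins and gated channels, is broken down by phosphodiesterases, and changes transcription through CREB. The 10 human genes, ADCY1 to ADCY10, were found by their gene names, and all 10 were present among the 60675 gene rows of the deposited table. Of these 10, 7 had enough counts to be tested, and ADCY2, ADCY4 and ADCY10 did not. The family was chosen by the measured difference of ADCY8 between the groups described next, its log2 fold change in these same 6 libraries, so the values of ADCY8 are given as a description, with no test. The other 9 genes came with it by name, whatever their values.

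HT1080 is an established human fibrosarcoma line, labelled WT here. The series was made to evaluate how selective inhibitors of KDAC6 (HDAC6) are. Cells received SW-138 or SW-113, each at 1 µM for 48 h, with 3 libraries per compound made from total RNA depleted of ribosomal RNA. No vehicle-treated library was analysed here, so "higher" and "lower" compare SW-138 with SW-113, and a change by either compound would look the same. Whether the 3 libraries of a compound are separate cultures is not stated in the labels, and p-values cover only the spread among these libraries, which may be technical. In bulk RNA, fewer expressing cells and less RNA per cell cannot be told apart.

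Library totals were 32771670 to 40527236 estimated counts with SW-138 and 39249722 to 50871623 with SW-113. All 10 mesenchymal markers looked at, such as VIM and FN1, were at 1 CPM (read count scaled to library size) or more in every library. All 4 leukocyte and all 3 endothelial markers stayed below 1 CPM in every library, as did 3 of 4 epithelial markers, EPCAM and CDH1 among them, while CLDN4 lay at 1.82 to 3.07 CPM. Of 4 neuronal markers, RBFOX3 stayed below 1 CPM and SYT1 lay at 0.923 to 1.54 CPM. SNAP25 lay at 8.996 to 13.05 CPM and TUBB3 at 48.5 to 68.5 CPM. The 4 neuronal markers, mostly TUBB3, summed to 61.1 to 66.7 CPM in SW-138 and 67.9 to 78.7 CPM in SW-113, without overlap. Their part in the values of ADCY8, a gene known from neurons, was not tested. On the first principal component the SW-113 libraries lay from -24.05 to -10.15, and SW-138 replicates 1 and 3 at 3.54 and 5.88. SW-138 replicate 2 stood apart at 39.08, on the side of its own group. Results that depend on SW-138 replicate 2 are given with and without it.

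HT1080 cells expressed mainly 4 adenylyl cyclases under both compounds: ADCY3, ADCY6, ADCY7 and ADCY9. Together with ADCY8 these made up nearly all counts of the family. ADCY3, a widely expressed enzyme best known from olfactory cilia, took 42.8% ± 0.857 of the family's CPM in SW-138 and 42.7% ± 0.666 in SW-113 (SD, n = 3 each). ADCY6, which calcium and inhibitory G proteins restrain, took 24.7% ± 1.13 in SW-138 and 24.4% ± 0.981 in SW-113. ADCY7, a member of the group that G protein beta-gamma subunits stimulate, took 20.3% ± 0.750 and 21.8% ± 0.112, in SW-138 and SW-113. ADCY9, which responds poorly to the plant diterpene forskolin, took 9.70% ± 0.430 in SW-138 and 9.96% ± 0.644 in SW-113. ADCY8 accounted for 2.05% ± 0.475 of the family in SW-138 and 0.668% ± 0.102 in SW-113. Beside its large difference, ADCY8 was thus a small part of the family's mRNA in both groups. Without ADCY8, the family summed to 189.9 ± 23.3 CPM in SW-138 and 171.9 ± 8.86 CPM in SW-113.

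**Figure D1:**
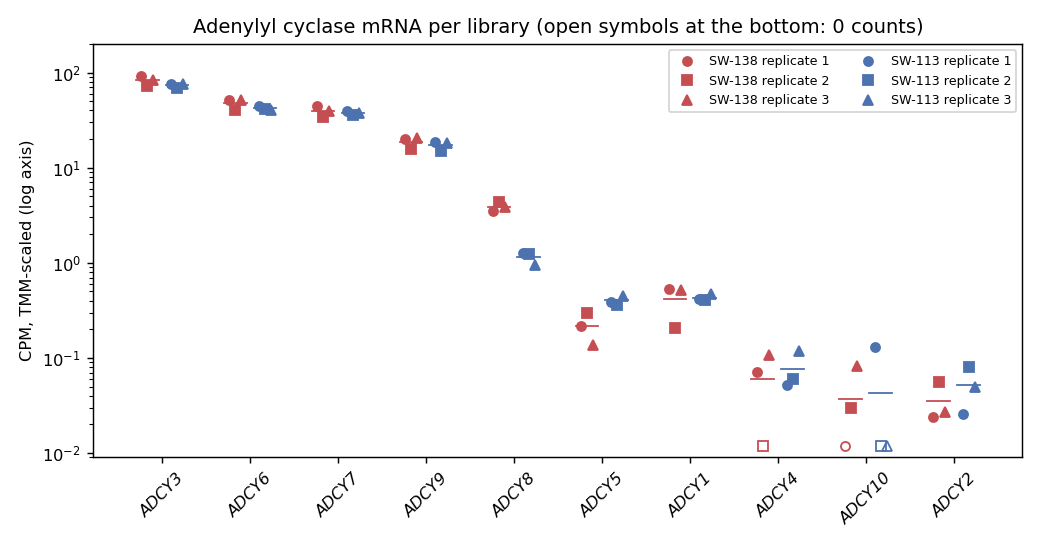
Level of each adenylyl cyclase mRNA in every library, in TMM-scaled CPM on a log axis, ordered by level per kilobase; SW-138 stands left of SW-113, short lines are group means and open symbols at the bottom mark 0 counts. ADCY8 is the member whose groups lie farthest apart, and its 3.48 to 4.32 CPM in SW-138 and 0.959 to 1.27 CPM in SW-113 lie between the 4 high members and the 5 low ones.

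Levels of different genes were compared per kilobase of merged exons. ADCY3 led with 12.1 to 15.1 CPM per kb in SW-138 and 11.5 to 12.7 in SW-113. ADCY6 followed with 4.781 to 6.196 in SW-138 and 4.799 to 5.305 in SW-113, and ADCY7 with 3.97 to 5.19 and 4.15 to 4.61, in SW-138 and SW-113. The libraries of ADCY6 and ADCY7 overlapped in SW-138 and did not in SW-113, and ADCY6 was the higher of the pair in 6 of 6 libraries. ADCY9 lay at 1.53 to 1.97 CPM per kb in SW-138 and 1.46 to 1.79 in SW-113. ADCY8 ranked 5 in both groups, at 0.583 to 0.725 CPM per kb in SW-138 and 0.161 to 0.214 in SW-113. ADCY5 and ADCY1 were far below, with means of 0.0348 and 0.0306 CPM per kb over the 6 libraries, and ADCY5 was the higher of the pair in 4 of 6. Their ranges overlapped in SW-138 and did not in SW-113. ADCY4, ADCY10 and ADCY2 formed the bottom of the order, where neighbouring ranges overlapped in both groups.

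ADCY8 (ENSG00000155897) lies on the minus strand of chromosome 8, from 130780301 to 131042426 (GRCh38). Its enzyme is stimulated by calcium entering the cell, and it is best known from brain and pancreatic islets. The deposited counts were 145, 146 and 143 in SW-138 replicates 1, 2 and 3. In SW-113 replicates 1, 2 and 3 they were 49, 61 and 39. On the CPM scale ADCY8 was at 3.48, 4.32 and 3.88 in SW-138 and at 1.27, 1.23 and 0.959 in SW-113. Every SW-138 library was thus well above every SW-113 library, although the SW-113 libraries of replicates 2 and 3 were the deepest of the 6. The group means were 3.89 ± 0.422 CPM in SW-138 and 1.15 ± 0.171 CPM in SW-113 (SD, n = 3 each). The log2 fold change was 1.75 ± 0.19 (SE), a 3.36-fold difference with a 95% interval of 2.52-fold to 4.48-fold. This interval takes no account of the choice of ADCY8 by the same difference, so it is not a test. By size of log2 fold change ADCY8 ranked 17 from the top of 16905 tested genes, whose median log2 fold change was 0.007. Its level was modest: 28.9% of tested genes had a lower mean CPM. ADCY8 had more than 10 counts in all 6 libraries, so it would have been kept for testing through either group alone.

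ADCY8 kept its size across the ways of processing that could measure it. With a library left out in turn, its log2 fold change lay between 1.63, without SW-113 replicate 3, and 1.82. It was 1.66 without SW-138 replicate 2. Other scalings gave 1.75 to 1.81. The members have long transcripts, 5050 to 12503 bases by their longest annotated transcript, where the median of tested genes was 3269. Long transcripts tended to be higher in SW-138: of 4195 tested genes with transcripts longer than 5072 bases, 199 were higher and 72 lower. After correction for transcript length and GC trends, ADCY8 was at 1.71.

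**Figure D2:**
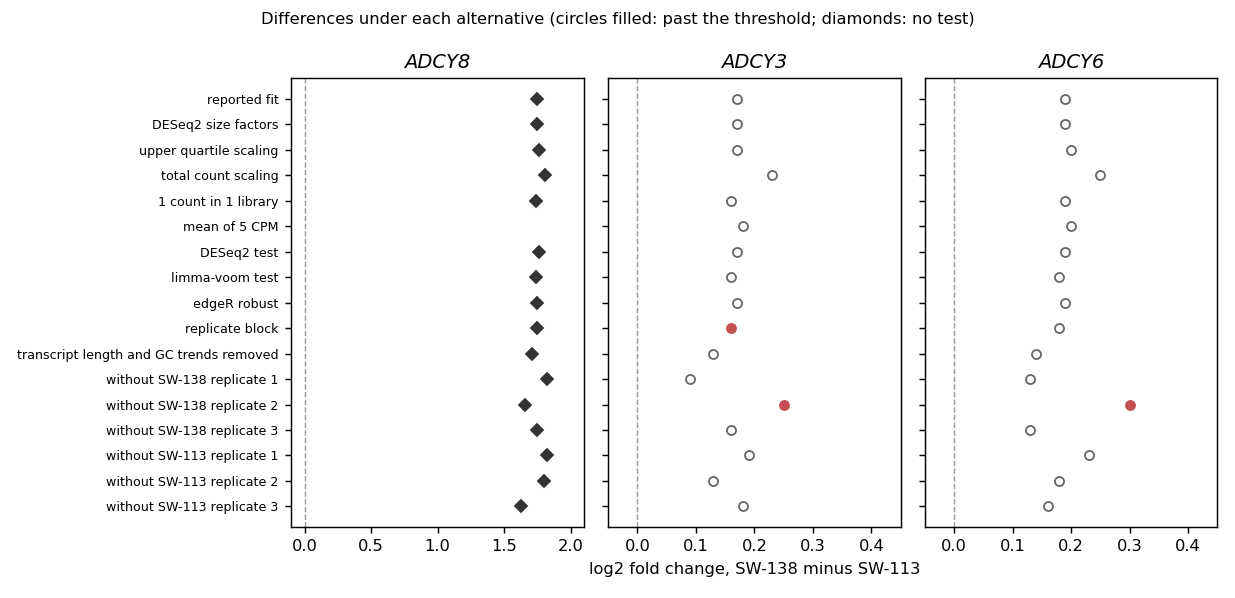
Log2 fold change (SW-138 minus SW-113) of ADCY8, ADCY3 and ADCY6 in the reported fit and under each alternative, with a wider horizontal scale for ADCY8; filled circles passed an adjusted p of 0.05, and diamonds carry no test. ADCY8 stays between 1.63 and 1.82 where it could be fitted, ADCY3 and ADCY6 are past the threshold without SW-138 replicate 2, and ADCY3 also with the replicate block.

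In the fit over all genes with edgeR, 6.82% of the 16905 tested genes passed a Benjamini-Hochberg adjusted p of 0.05, 2.76% as higher and 4.06% as lower in SW-138. Of the 7 tested adenylyl cyclases 1 passed, ADCY8, the gene the family was chosen for, and nothing is read from that count. Of the other 6, 0 passed, and 1, ADCY5, had an unadjusted edgeR p under 0.05. Libraries of the groups did not overlap for 2 of the 7, ADCY8 and ADCY5, as for 27.9% of all tested genes. The median log2 fold change of the 7 was 0.13.

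ADCY1 (chromosome 7, 45574140 to 45723116), named above with ADCY8 as stimulated by calcium and calmodulin, was nearly silent. Its deposited counts were 22, 7 and 19 in SW-138 and 16, 20 and 19 in SW-113. The groups overlapped, and the log2 fold change of -0.02 ± 0.39 (SE) had a 95% interval from -0.89 to 0.85. It has no settled sign, being 0.04 with total count scaling and 0.28 without SW-138 replicate 2. ADCY3 (chromosome 2, 24819169 to 24919839), the main member in these cells, was at 91.6, 73.2 and 83.8 CPM in SW-138 and at 76.7, 69.7 and 75.2 CPM in SW-113. SW-138 replicate 2 lay among the SW-113 libraries and the other 2 SW-138 libraries lay above all of them. ADCY3 did not pass, with a log2 fold change of 0.17 ± 0.08 (SE; edgeR adjusted p = 0.24). Without SW-138 replicate 2 it was called higher, at 0.25 (edgeR adjusted p = 0.0254), and with each library left out in turn its log2 fold change ran from 0.09 to 0.25. ADCY3 shares 3208 bases with CENPO on the other strand. CENPO was at 17.6 CPM in SW-138 and 16.96 CPM in SW-113 and did not pass, and the sources used here do not say whether strand was used in counting. The antisense gene AC012073.1 within ADCY3 was at 0.892 CPM in SW-138 and 1.09 CPM in SW-113 and did not pass either.

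Among enzymes that calcium inhibits, ADCY6 (chromosome 12, 48766194 to 48789037) was the more abundant. It was at 51.6, 40.2 and 52.1 CPM in SW-138 and at 44.6, 41.4 and 40.4 CPM in SW-113. SW-138 replicate 2 was the lowest of all 6 libraries, and the other 2 SW-138 libraries were the highest. ADCY6 had a log2 fold change of 0.19 ± 0.09 (SE; edgeR adjusted p = 0.264), and without SW-138 replicate 2 it was called higher at 0.30 (edgeR adjusted p = 0.00976), in a range of 0.13 to 0.30 over fits with a library left out. Its close relative ADCY5 (chromosome 3, 123282296 to 123449758), known from heart and striatum, was near the limit of detection. It had 9, 10 and 5 counts in SW-138, against 15.07, 18 and 18.37 counts in SW-113. Every SW-138 library was below every SW-113 library in CPM, at 0.136 to 0.296 in SW-138 and 0.363 to 0.452 in SW-113. Its log2 fold change was -0.88 ± 0.38 (SE), it did not pass (edgeR adjusted p = 0.218), and it ranged from -1.15 to -0.64 over fits with a library left out.

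In the group that beta-gamma subunits stimulate, ADCY7 (chromosome 16, 50246137 to 50318135) was the expressed member. It was at 44.8, 34.2 and 39.3 CPM in SW-138 and at 39.8, 35.8 and 37.5 CPM in SW-113, so the groups overlapped. On the log2 scale the difference was 0.07 ± 0.09 (SE), with bounds of -0.13 and 0.27 at 95% (edgeR adjusted p = 0.698), and it was -0.03 without SW-138 replicate 1. ADCY7 overlaps 4649 bases of BRD7 on the other strand, which was at 53.5 CPM in SW-138 and 57.9 CPM in SW-113 and did not pass. ADCY2 had 1, 1.87 and 1 counts in SW-138 and 1, 4 and 2 in SW-113. ADCY4 had 3, 0 and 4 counts in SW-138 and 2, 3 and 4.79 in SW-113. With so few reads neither could be compared between compounds.

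ADCY9 (chromosome 16, 3953387 to 4116185) was at 20.2, 15.8 and 20.4 CPM in SW-138 and at 18.6, 15.1 and 18.1 CPM in SW-113. Its groups overlapped, with a log2 fold change of 0.13 ± 0.11 (SE) and a 95% interval of -0.12 to 0.38 (edgeR adjusted p = 0.536). In all 4 well-expressed members SW-138 replicate 2 was the lowest SW-138 library, while for ADCY8 it was the highest. ADCY10, the soluble enzyme that bicarbonate stimulates, had 0, 1 and 3 counts in SW-138 and 5, 0 and 0 counts in SW-113.

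**Figure D3:**
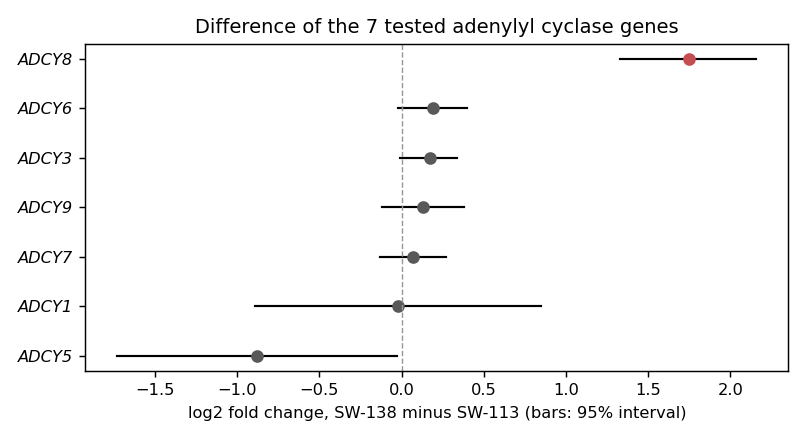
Log2 fold change (SW-138 minus SW-113) of the 7 tested adenylyl cyclase genes with 95% intervals from limma-voom standard errors, with ADCY8 marked in red as the gene the family was chosen for. ADCY8 lies at 1.75, the 4 well-expressed members between 0.07 and 0.19, and the low members ADCY1 and ADCY5 have wide intervals.

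The genes beside ADCY8 on its chromosome did not pass. ASAP1, the nearest coding gene 336640 bases away at lower coordinates, was at 187 CPM in SW-138 and 177.8 CPM in SW-113, or 0.07 ± 0.05 on the log2 scale (SE). EFR3A, 861661 bases away on the other side, was at 153.8 CPM in SW-138 and 147.1 CPM in SW-113, or 0.06 ± 0.05. FAM49B, beyond ASAP1, was at -0.14 ± 0.05. A pair of noncoding genes lies inside ADCY8: the antisense gene AC103726.2 had 0 counts in all 6 libraries, and the intronic AC103726.1 averaged 0.00905 CPM in SW-138 and 0 in SW-113.

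Genes were ranked by how closely their levels followed ADCY8 over the 6 libraries. Among 13599 tested genes with a mean of at least 1 CPM, 155 had a Pearson correlation of 0.95 or more with ADCY8 in log2 CPM, and 313 had -0.95 or less. The highest were LINC01583, a long noncoding RNA, SCYL3 and ZFP37, each at 0.996. LINC01583 was at 18.9, 20.7 and 20.3 CPM in SW-138 and at 12.7, 12.3 and 12.0 CPM in SW-113. SCYL3 and ZFP37 differed far less than ADCY8, with log2 fold changes of 0.22 ± 0.07 and 0.16 ± 0.09 (SE). Neither passed (edgeR adjusted p = 0.0806 and 0.342). The lowest were the ribosomal protein gene RPS24 (-0.998), the thioredoxin gene TXN (-0.996) and the MAP kinase phosphatase gene DUSP4 (-0.996). DUSP4 was at 216, 213 and 218 CPM in SW-138, against 276, 275 and 286 CPM in SW-113. Within the family, the correlation with ADCY8 was 0.52 for ADCY3, 0.52 for ADCY6 and -0.81 for ADCY5. With group means removed these became -0.60, -0.26 and 0.01, and the other tested members lay between -0.62 and -0.49. These values are a description over 6 libraries, which share their compound within a group. ADCY8 was chosen for its difference between the groups, so a high correlation with it largely follows that split. With group means removed, LINC01583, SCYL3 and ZFP37 were at 0.86, 0.99 and 0.86. RPS24, TXN and DUSP4 were then at -0.94, -0.94 and -0.88. These 6 genes were picked by their correlation over the same 6 libraries, so nothing is read from these values.

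Among genes that feed signals to adenylyl cyclases, G protein subunits came first. Of 4 tested genes for stimulatory alpha subunits and their chaperones 0 passed at an adjusted p of 0.05 in edgeR, and 1, GNAS, had an unadjusted p under 0.05. GNAS, which encodes the stimulatory alpha subunit, was at 465 ± 17.7 CPM in SW-138 and 511 ± 13.8 CPM in SW-113 (SD, n = 3 each). On the log2 scale GNAS was at -0.13 ± 0.05 (SE; edgeR adjusted p = 0.159), and the chaperone gene RIC8A at -0.09 ± 0.05. Of the 5 inhibitory alpha subunit genes 0 passed, with 0 at an unadjusted p under 0.05 in edgeR, and GNAI2 and GNAI3 were at -0.07 ± 0.05 and -0.08 ± 0.05. Of 12 beta and gamma subunit genes 1 was lower, GNG2, at 12.3, 11.0 and 13.1 CPM in SW-138 and 15.6, 16.4 and 17.2 CPM in SW-113. GNG2 had a log2 fold change of -0.44 ± 0.08 (SE; edgeR adjusted p = 0.0126), and the call was lost without SW-113 replicate 3. Of the 12 genes, 7 had an unadjusted edgeR p under 0.05, 6 with a negative log2 fold change and GNG7 with a positive one. The share of all tested genes at an unadjusted p under 0.05 is not given here, so nothing is read from such counts. DESeq2 called 2 of the 12 lower, and robust edgeR and the fit without SW-138 replicate 2 called 3. GNB1, the most abundant of the 12, was at -0.13 ± 0.05 (SE) and GNG12 at -0.04 ± 0.05, and neither passed.

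Receptors that couple to stimulatory G proteins were mostly low, and 10 of 33 listed genes were tested. HRH2, a histamine receptor, was higher, at 4.27, 2.43 and 3.72 CPM in SW-138 and 2.29, 1.75 and 1.92 CPM in SW-113. Its log2 fold change of 0.82 ± 0.22 (SE; edgeR adjusted p = 0.0484) lost its call in 5 of 6 fits that left out a library, all but that without SW-138 replicate 2, and in limma-voom. The serotonin receptor gene HTR7, the highest of the 10, was at 27.5 CPM in SW-138 and 27.6 CPM in SW-113, and the adenosine receptor gene ADORA2B was at 0.19 ± 0.16 on the log2 scale. Of 14 tested genes for receptors that couple to inhibitory G proteins 0 passed in edgeR and 2 had an unadjusted p under 0.05, LPAR2 and SSTR2, with log2 fold changes from -0.75 to 0.51 over the list. The most abundant of these, HTR1D and GABBR1, were at -0.07 ± 0.10 and 0.07 ± 0.09. For ADCY8, the calcium side matters as well. Of 10 genes of calmodulin and store-operated calcium entry 0 passed in edgeR and 1, CALM3, had an unadjusted p under 0.05, and their log2 fold changes lay between -0.14 and 0.16. CALM2, the highest calmodulin gene, was at -0.05 ± 0.04.

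Genes that remove or receive cAMP gave scattered calls. Of 13 tested cAMP phosphodiesterase genes 1 was higher, PDE1C, whose enzyme is itself stimulated by calcium and calmodulin. PDE1C was at 3.41, 3.55 and 3.39 CPM in SW-138 and 2.286, 2.097 and 1.819 CPM in SW-113. The difference was 0.74 ± 0.15 on the log2 scale (SE; edgeR adjusted p = 0.0161). The groups did not overlap, and its call was lost without SW-138 replicate 1 or 3 or SW-113 replicate 2 or 3. PDE4D was at 0.09 ± 0.12, PDE8A, the highest phosphodiesterase gene, at 0.01 ± 0.05 and PDE10A at 0.00 ± 0.06. The transporter genes ABCC4 and ABCC5, which export cyclic nucleotides, were at 0.07 ± 0.06 and -0.03 ± 0.09. Among 10 genes of PKA subunits and inhibitors PRKX, a relative of the catalytic subunits, was lower at -0.24 ± 0.06 (SE; edgeR adjusted p = 0.0431), a call lost in all fits that left out a library but that without SW-138 replicate 2, and with total count or upper quartile scaling. PRKACA was at -0.18 ± 0.06, PRKAR1A at -0.01 ± 0.05 and PRKAR2A at -0.06 ± 0.05, and none of these passed.

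Of 6 tested genes of EPAC, POPDC and cAMP-gated channels 1 was lower. This was POPDC3, which encodes a membrane protein that binds cAMP, at 18.9, 18.3 and 16.4 CPM in SW-138 and 26.4, 23.2 and 26.9 CPM in SW-113. Its log2 fold change was -0.51 ± 0.08 (SE; edgeR adjusted p = 0.00636), while its relative BVES was at -0.01 ± 0.09. Of 14 anchoring protein genes 1 was higher, AKAP12, a scaffold for PKA and protein kinase C, at 223, 209 and 215 CPM in SW-138 and 160, 151 and 155 CPM in SW-113. AKAP12 had a log2 fold change of 0.48 ± 0.05 (SE; edgeR adjusted p = 0.00144). The calls of POPDC3 and AKAP12 held in all 6 fits that left out a library. AKAP2 was at 237, 221 and 231 CPM in SW-138 and 209.7, 196 and 199.9 CPM in SW-113, without overlap. It missed the threshold at 0.18 ± 0.05 (SE; edgeR adjusted p = 0.0608) and was called higher in 8 of 16 alternatives, DESeq2, limma-voom and robust edgeR among them. AKAP11 was at 0.04 ± 0.05. Of 13 genes of the CREB family, its coactivators and the SIK genes, together called the CREB family below, 0 passed in edgeR. In this list 2, CREB3 and CREB5, had an unadjusted p under 0.05. CREB1 was at -0.02 ± 0.05, CREM at -0.13 ± 0.08, the coactivator gene EP300 at -0.04 ± 0.06 and SIK2 at 0.01 ± 0.05. DESeq2, limma-voom and robust edgeR also called 0 genes in each of these lists with no call. Other settings did make calls there: in the CREB family 1 gene was called higher with total count scaling, 1 higher with a minimum mean of 5 CPM and 1 lower with a minimum of 1 count in 1 library, and 1 calcium entry or calmodulin gene was called higher without SW-138 replicate 2. Apart from the genes described next, 6 of 108 tested genes around cAMP passed, 3 in each direction, or 5.56%, near the 6.82% of all tested genes.

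**Figure D4:**
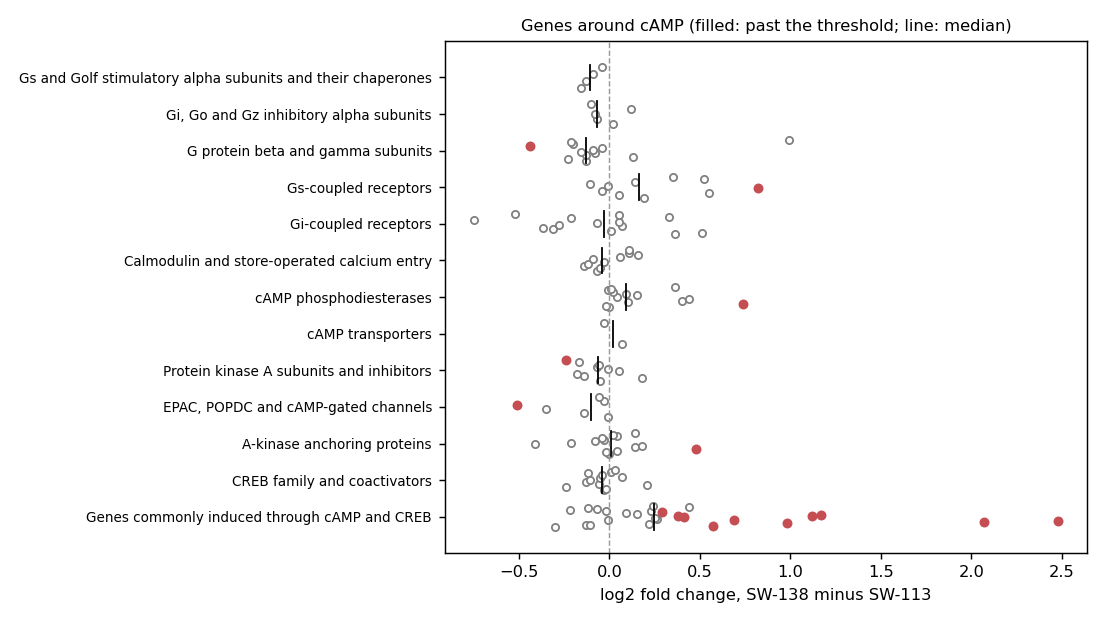
Log2 fold change (SW-138 minus SW-113) of every tested gene in the 13 lists around cAMP, with genes past an adjusted p of 0.05 filled and the median of each list as a line. Medians of the first 12 lists lie between -0.13 and 0.16, and filled points gather on the right in the list of genes commonly induced through cAMP and CREB.

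Genes commonly induced through cAMP and CREB held more calls than any other of the 13 lists. Of 26 tested, 10 were higher, 16 missed the threshold and 0 were lower, where 2.76% of all tested genes were higher, and the list's median log2 fold change was 0.24 against 0.007 for all tested genes. Many of these genes also answer calcium and MAP kinase signals, and the list was compiled with earlier results on some of them known, so its direction is not independent evidence. FOSB, an AP-1 subunit, was at 1.49, 1.21 and 1.33 CPM in SW-138 and 0.208, 0.282 and 0.221 CPM in SW-113. FOS, its relative, was at 5.16, 3.67 and 4.86 CPM in SW-138 and 1.53, 0.907 and 0.860 CPM in SW-113. In both, the groups lay far apart, with log2 fold changes of 2.48 ± 0.30 and 2.07 ± 0.25 (SE; edgeR adjusted p = 0.00215 and 0.00185). EGR1, a zinc finger transcription factor, was at 14.4, 11.9 and 15.3 CPM in SW-138 and 7.04, 7.72 and 6.32 CPM in SW-113, or 0.98 ± 0.12 on the log2 scale (SE; edgeR adjusted p = 0.00192). BDNF, a neurotrophin gene, was at 0.57 ± 0.06 (SE; edgeR adjusted p = 0.00144). These calls held in all 6 fits that left out a library.

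The others that passed were the orphan nuclear receptor genes NR4A1, NR4A2 and NR4A3, the clock gene PER1, the cytokine gene IL6 and NFIL3. They are named because they complete the count, with log2 fold changes from 0.29 in PER1 to 1.17 in NR4A3. The 16 that missed the threshold ran from -0.30 in AREG to 0.44 in THBS1, 8 of them above 0 and 8 below. Below 0 lay AREG, PTGS2, CREM (-0.13), SIK1 (-0.12), CRTC1 (-0.11), RGS2 (-0.07), PPARGC1A (-0.02) and GEM (-0.01). Above 0 lay THBS1, INHBA, JUNB, VGF (0.24), PER2, DUSP1, PDE4B (0.15) and PDE4D (0.09). The next count has no share of all tested genes at the same unadjusted p beside it, so nothing is read from it. Of the 26 tested, 16 had an unadjusted edgeR p under 0.05. These were the 10 called, 5 more with a positive log2 fold change (THBS1, INHBA at 0.26 ± 0.09, JUNB at 0.25 ± 0.08, PER2 at 0.23 ± 0.07 and DUSP1 at 0.22 ± 0.07, SE) and 1 with a negative one, PTGS2 at -0.22 ± 0.10. DUSP1, a MAP kinase phosphatase gene and among the most abundant of the list, was at 65.8, 72.2 and 75.7 CPM in SW-138 and 59.7, 66.6 and 57.3 CPM in SW-113, so its groups overlapped. THBS1, the most abundant gene of the list and a matrix glycoprotein, was at 652, 460 and 591 CPM in SW-138 and 458, 357 and 437 CPM in SW-113. It did not pass, at 0.44 ± 0.12 (SE; edgeR adjusted p = 0.0598), and was called higher without SW-138 replicate 2. Counts of higher genes in the list ran from 7 to 14 over fits that left out a library, with 14 without SW-138 replicate 2, and no such fit called a member lower. Over all 13 lists, each gene counted once, 16 of 134 tested genes passed, or 11.9%, against 6.82% of all tested genes. Of the 16, 13 were higher and 3 lower, and 10 were in the induced list. The total was 10, 25 and 10 without SW-138 replicate 1, SW-138 replicate 2 and SW-113 replicate 2, and 9 without SW-113 replicate 3. Those same fits called 509, 1616, 458 and 303 of all tested genes, in that order.

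**Figure D5:**
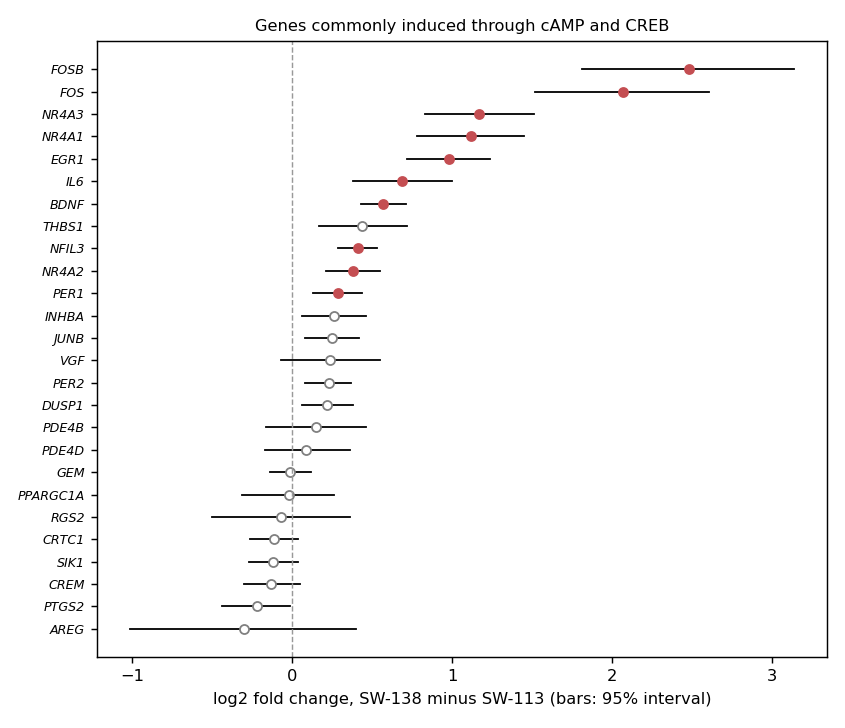
Log2 fold change (SW-138 minus SW-113) of the 26 tested genes commonly induced through cAMP and CREB, with 95% intervals; filled points passed an adjusted p of 0.05. FOSB and FOS lie farthest right at 2.48 and 2.07, and 16 genes have open points.

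CREB binds the cAMP response element TGACGTCA or its half-site TGACG. Promoter windows of 250 bases before to 50 bases after the start, from RefSeq on GRCh38.p14, were searched on both strands, where the half-site reads CGTCA in reverse and each full element holds a half-site on either strand. Of 24 tested genes of the induced list with a window, 18 held a half-site and 4 the full element. Among all 10678 tested genes with a window, 39.7% held a half-site and 3.65% the full element. The list was compiled for induction through CREB, so this difference was built in and nothing is read from it. Of the 9 genes called higher that had a window, 7 held a half-site and 0 the full element. Among adenylyl cyclases, 7 genes had a window, while ADCY8, ADCY6 and ADCY9 had none and could not be searched. Of the 7, ADCY1, ADCY2 and ADCY3 held a half-site, ADCY4, ADCY5, ADCY7 and ADCY10 held none, and 0 held the full element. A match describes letters and not a bound site. NR4A1 and PER1 are the called genes whose windows held no half-site. The stretches shown were chosen because they hold the half-site, in the main family member and in 4 called genes with large differences, with the half-sites in capitals:
ADCY3, chr2:24919809-24919835, minus strand: ccTGACGgcgggagatcgcgctccggc
FOS, chr14:75278744-75278788, plus strand: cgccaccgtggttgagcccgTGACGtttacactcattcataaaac
FOSB, chr19:45467916-45467960, plus strand: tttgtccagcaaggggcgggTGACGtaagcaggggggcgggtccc
NR4A3, chr9:99821756-99821875, plus strand: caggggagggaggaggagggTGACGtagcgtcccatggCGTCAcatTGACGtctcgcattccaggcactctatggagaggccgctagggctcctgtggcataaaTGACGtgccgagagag
EGR1, chr5:138465324-138465437, plus strand: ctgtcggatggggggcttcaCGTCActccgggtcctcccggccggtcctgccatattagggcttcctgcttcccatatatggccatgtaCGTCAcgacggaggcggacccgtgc
The half-site begins 64 bases before the annotated start in FOS and 60 in FOSB, and NR4A3 holds 4 of them between 109 and 25 bases before its start. In ADCY3, where 1 of 2 windows held it, it lies 248 bases before the start used for that window. The ADCY3 stretch falls inside the gene's annotated span, 24819169 to 24919839, so it is not upstream of the whole gene.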

How the data were processed

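The authors deposited 1 table of expected counts per gene, with a column per library, and 0 other sample columns were present. Per the submitters' processing notes, Trimmomatic 0.39, Bowtie2 2.5.4, RSEM 1.3.3, DESeq2 1.42.0 and GRCh38 were used, with no role or order given. Annotation version, filters and strand setting are not given in the sources used here. RSEM divides reads shared between similar genes, so such values are uncertain.

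Estimated counts were rounded and kept by filterByExpr, leaving 16905 of 60675 genes. SW-138 was compared with SW-113 by edgeR 4.0.16 (quasi-likelihood, TMM scaling, no block), in R 4.3.3, and p-values were adjusted by Benjamini-Hochberg across the 16905 genes (threshold 0.05). The SE is that of limma 3.58.1 (voom), and 95% intervals place it around the edgeR estimate. CPM used TMM-scaled totals. Coordinates and exon lengths are from GENCODE 29 (GRCh38). The fit was tested on simulated data. No replicate pair agreed within sampling noise. Correlations with ADCY8 used log2 of CPM plus 0.05.

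Named genes were the 10 members, 9 fixed genes (GNAS to CREM, of which 1 is not reported here), in each list up to 4 past the threshold and the 2 highest, the 3 most and least correlated with ADCY8, and its neighbours. AREG, GNG7, genes of the induced list beyond the rule, and some with an unadjusted p under 0.05 were named after their values were seen. The members and the 13 lists of 191 genes were chosen with earlier results of these data known, and CRHR1 had no single row. Alternatives were 3 scalings, 2 filters, DESeq2, limma-voom, robust edgeR, a replicate block, leaving out each library and, added after seeing the data, removal of length and GC trends.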

Additional observations from a re-analysis of the deposited data

How the results depend on the processing

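The log2 fold change of ADCY8 moved by less than the spread between replicates in every alternative that could fit it, 1.63 to 1.82 with a library left out. A filter of a mean of 5 CPM removed ADCY8, leaving 0 of 4 members called. Keeping genes at 1 count in 1 library called 2060 genes. Total count scaling raised the share of calls that were higher to 71.0% (923 higher, 377 lower), against 40.4% with TMM factors (466 higher, 687 lower), and moved the median of all genes by 0.064. Leaving out a library gave 303 to 1616 called genes, 1 to 3 adenylyl cyclases (ADCY3 and ADCY6 joined ADCY8 without SW-138 replicate 2) and 9 to 25 genes around cAMP; fewer libraries entered each fit. The labels state no block, so replicate number was not used as one in the reported fit. Same-numbered libraries deviated together by 0.049, 0.206 and 0.051 (correlation over genes), and differently numbered ones by -0.142 to 0.09. Whether the numbers pair the libraries was not tested. With replicate number as a block, 2363 genes, 2 adenylyl cyclases (ADCY3 at 0.16, edgeR adjusted p = 0.0421, beside ADCY8 at 1.75) and 25 genes around cAMP were called (3 beta and gamma subunit genes lower, 1 CREB family gene higher and 1 lower among them); the cause was not tested. Among named genes no called direction was reversed in any alternative run. Depth limits ADCY1, ADCY2, ADCY4, ADCY5 and ADCY10, at 0 to 22 counts a library.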
